A study of Mus musculus with 12 samples.

Results

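The WT leukaemia stem cells of this series were profiled on 6 Illumina bead arrays, out of 12 arrays in all, and every array labelled WT was taken. The WT arrays are described here on their own, as levels across genes, and are not set against the Terc-/- arrays that make up the rest of the series. The RNA came from mouse leukaemia driven by MLL-AF9, a fusion gene found in human myeloid leukaemias, expressed together with green fluorescent protein in WT marrow cells of the lin-, kit+, sca1+ type. Per the labels, 10000 such cells were injected into C57BL/6J recipients aged 6 to 8 weeks after 5.5 Gy of irradiation, a dose called sublethal, so recipients kept marrow cells of their own. At the onset of leukaemia the stem cell fraction was sorted for green fluorescence, no lineage markers, Kit on the surface and Fcgr on the surface. The sort used Kit and Fcgr proteins, so the levels of those genes describe the gate as well as the cells. Nothing in the labels says whether the samples came from separate animals, so an SD here measures the spread between these samples.

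Leukaemia stem cells are the cells of a leukaemia that can start the disease again in a new host. In mouse MLL-AF9 leukaemia they resemble granulocyte-macrophage progenitors, the committed precursors of neutrophils and monocytes. The fusion protein joins the chromatin-binding part of MLL to a partner that recruits the transcription elongation machinery, and it is known to keep HOXA cluster genes and Meis1 switched on. Myeloid progenitors load azurophil granules, also called primary granules, with myeloperoxidase and serine proteases, and make the contents of secondary granules only later in their maturation.

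Replicates 5 and 6 were nearly identical. Their arrays correlated at 0.996 over 38502 probes, against 0.977 to 0.990 in the other 14 pairs of WT arrays. Probes 2-fold apart were counted among the 19739 above the background limit, given below, in at least 3 of 6 arrays. There were 0 between replicates 5 and 6, against 276 to 1081 in the other pairs. Replicates 5 and 6 were therefore averaged and counted as 1 sample, named 5/6, which left 5 samples. All values below are log2 of the brightness of a gene's brightest probe, and a series of 5 values follows the order of replicates 1, 2, 3, 4 and 5/6. Probes bind with different strength, so an order of genes is an order of brightness and not of RNA amount. In sorted bulk samples, fewer cells of a type and less RNA per cell cannot be told apart. A gene was called above background when it exceeded 6.56, a limit that leaves 5% of background values above it. Of 18484 genes, 9006 (48.7%) were above the limit in all 5 samples, 5543 in none and 3935 (21.3%) in 1 to 4 samples. Each array had between 19531 and 19732 probes above the limit. The deposited values of the 6 arrays have nearly the same distribution, with sorted values at most 0.095 apart at any rank. Close counts per array follow from that and say nothing about the samples. A gene below the limit is not shown to be silent, since Sdha, a respiratory chain subunit that every cell uses, had 6.09, 6.32, 6.53, 6.28 and 6.24 and passed in no sample.

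The label of the cells was first read against 4 genes, Kit, Hoxa9, Meis1 and Mpo, which were above the limit in all 5 samples. Kit encodes the stem cell factor receptor used in the sort, and its level was 12.46, 12.82, 12.48, 12.29 and 12.55 (mean 12.52 ± 0.19, SD, n = 5). Hoxa9, a homeobox factor that drives self-renewal in MLL-rearranged leukaemia, had 10.03, 10.26, 10.95, 11.04 and 10.41 (10.54 ± 0.44, SD, n = 5). Replicates 3 and 4 were the highest for Hoxa9 and replicate 1 the lowest. Meis1, the DNA-binding partner of HOX proteins, had 12.93, 12.02, 12.35, 13.20 and 12.37 (12.58 ± 0.48, SD, n = 5), with replicate 4 highest and replicate 2 lowest. Mpo, the myeloperoxidase of azurophil granules, had 15.49, 15.65, 15.70, 15.69 and 15.65 (15.64 ± 0.08, SD, n = 5), close to the highest value on any array, 15.95. Of the Fcgr genes, which encode receptors for immunoglobulin G, Fcgr2b and Fcgr4 are given and no other member is described here. Fcgr2b lay between 11.51 and 11.70 and Fcgr4 between 10.39 and 11.67 in the 5 samples.

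**Figure D1:**
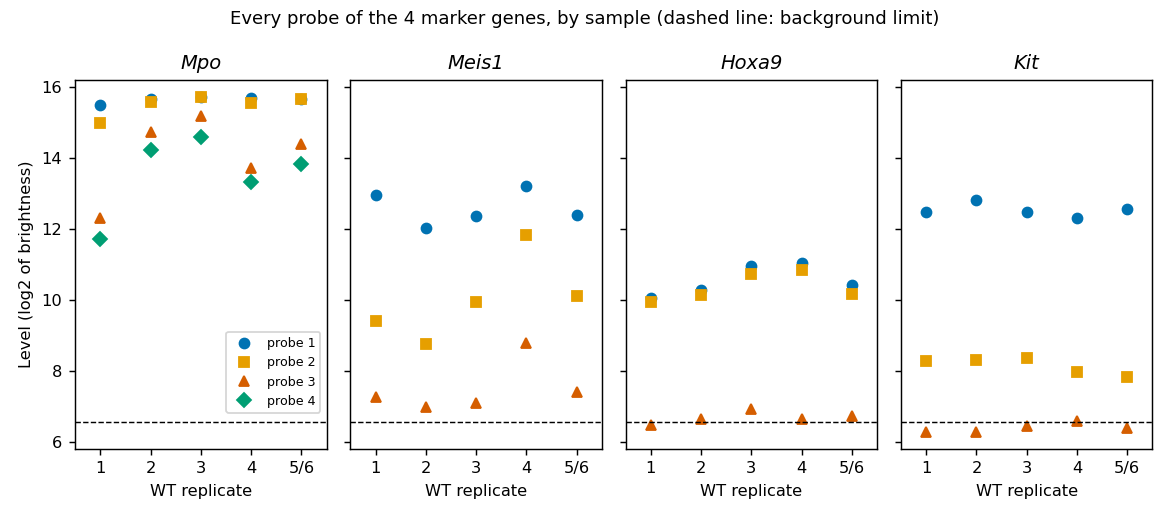
Level of every probe of Mpo, Meis1, Hoxa9 and Kit (vertical axis, log2 of brightness, numbered from the brightest) in each WT sample (horizontal axis, replicate). The brightest Mpo probe spans 0.21 log2 units, while the 2 dimmest Mpo probes span 2.86 and 2.88, with replicate 1 lowest and replicate 3 highest.

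The even level of Mpo belonged to its brightest probe only. Its dimmest probe read 11.70, 14.20, 14.58, 13.32 and 13.81, a range of 2.88 log2 units (7.34-fold), and the next dimmest read 12.30, 14.72, 15.16, 13.72 and 14.39, a range of 2.86. Replicate 1 was lowest and replicate 3 highest on both. The same was looked for in the other 68 genes with a mean level of at least 15. Further probes above the limit in all samples, with a mean below 14.5, were available for 18 of the 69 genes in all, 25 probes in number, and 23 of the 25 had a wider range than the brightest probe. The median range was 0.51 for these probes, against 0.24 for the brightest probes. Over all genes, spread was also wider at lower levels, with a median SD of 0.09 at 15 to 16 and 0.22 at 8 to 10. The comparison of bright and dim probes therefore cannot show whether a level above 15 hides spread. A range of at least 1 was seen on 2 of the 25 probes, both of Mpo. Meis1 showed a wider spread on its dimmer probes as well, with 9.40, 8.75, 9.94, 11.81 and 10.11 on its probe 2, a range of 3.06 with replicate 4 again highest. Kit kept a range of 0.54 on its probe 2, where it read 8.27, 8.31, 8.35, 7.97 and 7.81.

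The brightest genes were those of protein synthesis, chromatin and myeloid granules. Among the 100 brightest, 35 encoded cytosolic ribosomal proteins, a class that makes up 0.335% of all genes measured. A further 3 encoded translation factors such as Eef1a1, a class of 0.325%. Another 8 were H2A histones, from the class of core and linker histones, which makes up 0.427% of all genes measured. The H2A sequences are nearly identical, so their probes may read each other's transcripts. A group of 13 belonged to the lists of primary granule and late neutrophil genes, which together hold 0.243% of all genes measured. These were Elane, Stfa1, Prtn3, Mpo, S100a8, Ctsg, Camp, Plac8, Hp, Chil3, Slpi, S100a9 and Alas1. The rest held 3 tubulin and actin genes, 2 mitochondrially encoded genes and 36 genes outside these classes. Of all genes measured, these 3 groups make up 0.0974%, 0.0433% and 98.5%.

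Gpx1, a glutathione peroxidase that removes hydrogen peroxide, was the brightest gene at 15.83, 15.95, 15.92, 15.92 and 15.95. Next in order came H2ac13, Tuba1b, Rplp1, Rps12, Rpl9 and H2ac10, with means between 15.83 and 15.90. Elane, the neutrophil elastase, stood in place 8 at 15.76, 15.81, 15.88, 15.86 and 15.85, and was the brightest gene of myeloid granules. Prtn3, proteinase 3 of the same granules, stood in place 24 at 15.48, 15.72, 15.89, 15.78 and 15.76. The other genes among the 25 brightest were Rps9, H2ac24, Rps4x, Rps29, Eef1a1, Ppia, Rpl37, Rps24, H2ac20, Ubb-ps, Stfa1, H2ac7, Rpl41, Rps2, Itm2b and Rpl38, with means between 15.71 and 15.83. Most neighbours in this order differed by less than their spread over samples, with SDs between 0.03 and 0.15 in the 25 genes.

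All 17 measured genes of the primary granule and granulocyte-macrophage progenitor list were above the limit in all 5 samples, against 48.7% of all genes. Their median level was 12.96, against 6.70 over all genes. Ctsg, the granule protease cathepsin G, had 14.88, 15.62, 15.74, 15.27 and 15.45, with replicate 1 lowest as for the dim Mpo probes. Ms4a3, a membrane protein used to mark granulocyte-monocyte progenitors, had 13.57, 14.33, 14.35, 11.09 and 13.86. Replicate 4 stood apart from the rest for Ms4a3, by a gap of 2.48 log2 units (5.58-fold), and it was lowest on the gene's probe 2 too, at 7.84 against at least 10.56. Cst7 and Ctsc, which regulate and process granule proteases, had mean levels of 9.62 and 8.84.

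Of 22 myeloid transcription factors, 21 were above the limit in all samples, against 48.7% of all genes, with a median level of 9.98. Cebpb (mean 13.69), Nfe2 (13.33), Cbfb (13.13), Cebpe (13.03) and Gfi1 (12.67) led the list. Cebpe drives the late granule program and Gfi1 represses monocyte genes in granulocyte precursors. Spi1, which encodes PU.1, the master factor of myeloid fate, was even across samples, at 10.15, 10.10, 9.81, 10.01 and 10.08. Irf8, which favours monocyte and dendritic fate, had 11.04, 9.17, 9.53, 9.62 and 10.78, and replicates 1 and 5/6 lay above the others. Cebpa, the factor that opens the granulocyte-monocyte path, had 7.80, 8.64, 8.62, 7.87 and 7.95. Gfi1b, the erythroid and megakaryocyte relative of Gfi1, was the member that missed the limit in some samples, with 7.58, 6.48, 6.55, 6.46 and 6.86.

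Late neutrophil genes were also bright, with a median of 11.08. Of 28 measured, 25 were above the limit in all samples, against 48.7% of all genes. Stfa1, a cytosolic inhibitor of cathepsins with close paralogues, averaged 15.77, S100a8, a calcium-binding alarmin, averaged 15.60 and Camp, the cathelicidin of secondary granules, averaged 15.08. Ngp averaged 14.15, Lcn2, an iron-siderophore binding protein, 13.04 and Ltf, the lactoferrin of secondary granules, 9.98. Mmp8, a collagenase made late in neutrophil maturation, was below the limit in every sample, between 6.35 and 6.47, and Retnlg lay between 6.37 and 7.18.

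Of 25 growth factor receptors, 16 (64%) were above the limit in all samples, against 48.7% of all genes. After Kit came Ifngr1 (12.09), Csf2ra (11.94), the alpha chain of the GM-CSF receptor, Tgfbr1 (11.86), Csf3r (10.52), the G-CSF receptor, and Il3ra (9.72). Csf1r, the M-CSF receptor, had 9.29, 8.90, 8.53, 8.87 and 9.63. Flt3, whose activating mutations are common in human acute myeloid leukaemia, lay near background at 6.68, 6.48, 6.60, 6.33 and 6.46. Of 37 surface antigens, 31 were above the limit in all samples, led by Cd63 (14.60), Cd47 (14.23), the signal that restrains phagocytosis, Cd52 (13.38) and Emb (13.37). Cd33, a sialic acid binding receptor of myeloid cells, had 11.59, 10.50, 9.53, 11.45 and 11.32, and Cd34 had 8.58, 7.25, 7.46, 6.94 and 7.83, the highest in replicate 1 in both cases.

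Genes tied to the MLL fusion were mostly above background. Of 22 measured genes, 19 were above the limit in all samples, against 48.7% of all genes. Lmo2, a bridging factor of haematopoietic transcription complexes, was the brightest at 14.71, 14.27, 14.29, 14.59 and 14.63. Meis1 came next, and Mef2c (mean 12.52), Tcf4 (12.04), Zeb2 (11.14) and Eya1 (10.21) were also among its 10 brightest. Myb, a factor that MLL-AF9 leukaemia depends on, had a mean of 8.46 ± 0.17 (SD, n = 5), and Myc a mean of 7.89 ± 0.23. Mn1, a transcriptional cofactor, was below the limit in every sample, between 6.28 and 6.47, as was Zfp521, between 6.29 and 6.47.

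Within the 4 HOX clusters, signal was mostly in cluster A. In cluster A, 8 of 10 measured genes were above the limit in all samples, against 48.7% of all genes. The counts were 1 of 10 in cluster B, 1 of 9 in cluster C and 1 of 9 in cluster D. Of the 8 in cluster A, Hoxa2, Hoxa3, Hoxa4 and Hoxa13 were dim, with means between 7.23 and 7.47. Hoxa5 was the brightest, at 11.89, 11.67, 11.82, 12.16 and 11.69, followed by Hoxa7 with a mean of 11.41 and Hoxa9. Hoxa10, next to Hoxa9 in the cluster, had 7.36, 7.29, 8.90, 8.73 and 7.84, and its high samples were replicates 3 and 4, as for Hoxa9. Hoxb4 averaged 8.56, Hoxc10 6.79 and Hoxd11 6.73. Hoxc10 and Hoxd11 were thus close to the limit of 6.56.

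Monocyte and macrophage genes were mixed, with 18 of 31 (58.1%) above the limit in all samples, against 48.7% of all genes, and a median of 7.28. Ly6c1 (14.74) and the lysozymes Lyz1 (13.86) and Lyz2 (12.20) were bright, though the lysozyme genes are close copies whose probes may overlap. F13a1, a coagulation factor subunit made by monocytes, had 10.85, 12.23, 13.69, 11.60 and 12.55. Vcam1, an adhesion receptor, had 12.48, 11.42, 11.62, 13.68 and 12.60. The complement genes C1qa, C1qb and C1qc of tissue macrophages lay between 6.16 and 6.84, and Siglec1, of marrow macrophages, between 6.22 and 6.29.

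**Figure D2:**
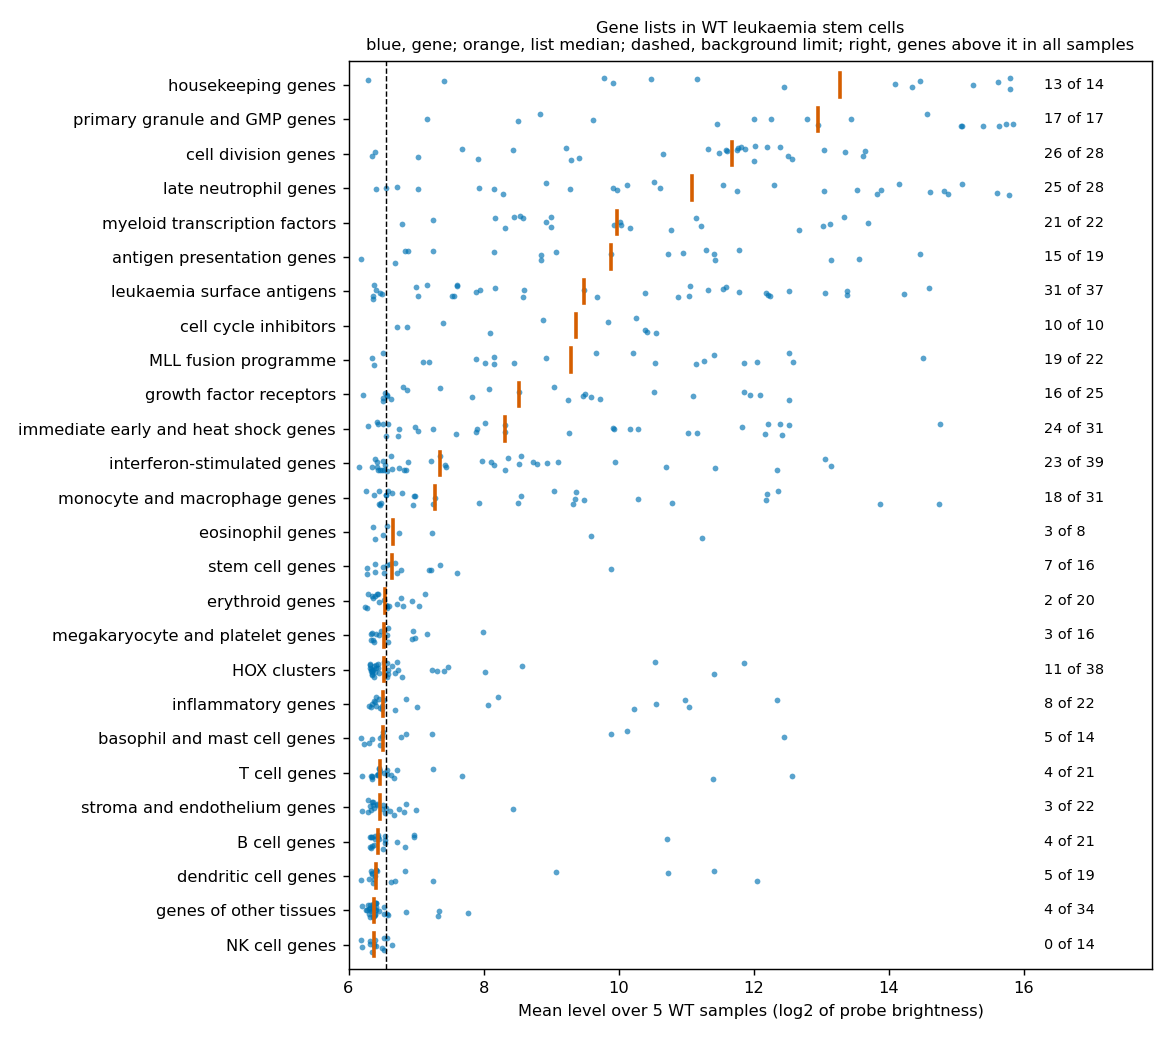
Mean level over 5 WT samples (horizontal axis, log2 of probe brightness) of each gene in 26 lists (vertical axis, ordered by median), with the count of genes above the limit in all samples at the right. All 17 primary granule genes lie right of the dashed limit of 6.56, and 0 of 14 NK cell genes are above it in all samples.

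Genes that define other blood lineages lay at or near the limit. NK cell genes were above it in all samples in 0 of 14 cases, with a median of 6.38 and a highest mean of 6.65 for Klrb1c. Erythroid genes were above it in 2 of 20 cases, both dim, Sptb (6.80) and Klf1 (6.78). Megakaryocyte genes passed in 3 of 16 cases, led by the platelet glycoprotein gene Gp9 (7.99). B cell genes passed in 4 of 21 cases and T cell genes in 4 of 21, against 48.7% of all genes. Genes of other tissues, such as liver, muscle and brain, passed in 4 of 34 cases, and stroma and endothelium genes in 3 of 22. Of the 34 genes of other tissues, 22 were above the limit in no sample, against 5543 of all 18484 genes.

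Cd79b, a chain of the B cell receptor complex, had 11.26, 10.57, 10.58, 10.17 and 10.99, and its probe 2 kept the order of the highest and lowest samples, with 10.17, 9.50, 9.40, 8.96 and 9.90. The other B cell genes stayed low, with Igll1 and Vpreb1 of the pre-B receptor at means of 6.98 and 6.97 and Pax5, the B lineage factor, between 6.35 and 6.43. Cd8b1, a T cell co-receptor chain, averaged 12.57 on its brightest probe, but its other probes averaged 6.51 and 6.49. Foxp3, the factor of regulatory T cells, averaged 11.39 on 1 probe and 6.87, 6.40 and 6.31 on its 3 others. Bcl11b, a T lineage factor, had 6.96, 8.48, 7.45, 8.23 and 7.27, and Cd28, a co-stimulatory receptor, lay between 6.97 and 7.62, so both were above the limit in all samples. Of the T cell receptor complex, Cd247 was above the limit in 4 samples and Cd3d in 3, with highest values of 6.82 and 6.73. Cd3e and Cd3g of the same complex, and Cd8a, were below it in all samples, between 5.98 and 6.50. The bright signal of Cd8b1 and that of Foxp3 thus rest on 1 probe each.

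Dendritic cell genes were above the limit in all samples in 5 of 19 cases, against 48.7% of all genes. Tcf4, the plasmacytoid dendritic cell factor that is also in the MLL fusion list, had 12.44, 11.14, 12.59, 10.83 and 13.22 on its brightest probe and about 6.49 and 6.30 on average on its others. H2-DMa (mean 11.40), H2-DMb1 (10.74) and H2-Ab1 (9.08), of the class II antigen pathway, were bright, while Ciita, the master switch of class II genes, lay between 6.01 and 6.33 and Siglech and Itgax were below the limit in all samples. Of 19 antigen presentation genes in all, 15 were above the limit in all samples, led by B2m (14.46) and H2-D1 (13.56). Replicate 4 was lowest for 13 of 18 members above the limit in at least 1 sample (72.2%), against 29.0% of all such genes.

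Xist, the RNA that silences an X chromosome in female cells, was bright in all 5 samples, at 11.28, 11.85, 12.54, 13.25 and 12.37. Eif2s3y and Kdm5d, on the Y chromosome, were below the limit in all samples, with highest values of 6.41 and 6.47. Uty, also on the Y chromosome, lay between 6.58 and 6.94. Xist was lowest in replicate 1 and highest in replicate 4 on each of its 4 probes, with a range of 1.97 on the brightest and of up to 3.53 on a dimmer probe.

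Cell division genes were bright. Of 28 measured, 26 were above the limit in all samples, against 48.7% of all genes, with a median level of 11.68. A range of 2 log2 units was seen in 0 of them, against 1.63% of all genes above the limit in at least 1 sample. Their median SD was 0.19, the same as for all genes at levels of 10 to 12. The replication helicase genes Mcm5 and Mcm4 led with means of 13.65 and 13.62. Top2a, the topoisomerase of dividing cells, had 12.33, 12.41, 12.39, 12.92 and 12.50, and Cdk1, the mitotic kinase, had 11.77, 12.01, 11.98, 12.30 and 11.93. All 5 samples lay within 0.58 of each other for Top2a and within 0.53 for Cdk1. Bub1 and Ccnb2, both needed in mitosis, were the exceptions, with means of 6.40 and 6.34. Ccnd1, a cyclin of the step from G1 to S phase, was the 1 member with a range of at least 1, at 9.40, 9.27, 7.99, 7.59 and 7.89.

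Cell cycle inhibitors were above the limit in all samples in 10 of 10 cases, against 48.7% of all genes. Cdkn1a, the p21 target of p53, had 9.002, 10.76, 8.04, 8.62 and 8.00, and replicate 2 stood apart by 1.75 log2 units (3.38-fold). Its probe 2 gave 8.67, 10.24, 7.74, 8.12 and 7.63, with the same sample on top. Cdkn2c, an inhibitor of CDK4 and CDK6, had 9.19, 9.74, 11.65, 9.997 and 11.39, so replicates 3 and 5/6 lay above the others. Cdkn2a, the tumour suppressor locus often lost in cancer, was dim, at 7.42, 8.08, 7.43, 7.17 and 6.88.

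Interferon-stimulated genes were above the limit in all samples in 23 of 39 cases (59.0%), against 48.7% of all genes, with a median of 7.35. Psmb8 (13.15), an immunoproteasome subunit, Ly6e (13.06) and Ifitm2 (12.34) were bright. The classical responders Ifit1 and Rtp4 were below the limit in all samples, between 6.12 and 6.51. Inflammatory genes passed in 8 of 22 cases (36.4%), and the chemokine genes Ccl9 (12.34), Ccl3 (11.04) and Ccl4 (10.23) were the main bright ones with Nfkbia and Osm.

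Among the 12941 genes above the limit in at least 1 sample, 211 (1.63%) had a range of at least 2 log2 units between the lowest and highest sample, which is 4-fold, and 1177 (9.10%) a range of at least 1. The difference between replicates 5 and 6 gave a yardstick, although the labels do not say whether they share RNA or an animal, so it may hold more than array error. As an SD it was 0.13 at levels of 6 to 7 and 0.09 at levels of 10 to 12. The median SD between samples was 0.13 at levels of 6 to 7, which is 1.01 times this SD, and 0.19 at levels of 10 to 12, which is 2.07 times. Differences between dim genes were thus no larger than that between these 2 arrays for a typical gene. Replicate 1 contributed most to the wide ranges. It was the highest sample for 85 of the 211 genes (40.3%), against 27.1% of the 12941, and without it the number of genes with a range of at least 2 fell to 107, from 4 samples.

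Probes of the same gene were compared next. Of the 211 genes, 109 had another probe, 68 of these had a range of at least 1 on their probe 2, and in 57 of the 68 the same samples were highest and lowest. Of the 12941 genes, 827 (6.39%) had 1 sample far from the other 4, with a gap above 0.71 of the range. Among the 30 genes of largest SD, 13 had another probe, and in 7 of 9 with a range of at least 1 the extremes were the same samples. Mtus2 (a microtubule-binding protein), Nmral1, Ear3 and Prr33 had a probe 2 near background, so their ranges rest on 1 probe. The steadiest of the 4621 brightest genes were Aamp, Rpl4, Ccnc, H2ac7, Rpl3, Cux1, Raly, Rps29, Ess2 and H2ac10, with SDs between 0.02 and 0.03. Aamp, an angiogenesis-associated protein, had 11.79, 11.79, 11.77, 11.74 and 11.77. The difference between the arrays of replicates 5 and 6 was -0.27 for Aamp, so an SD this small lies below the difference between these arrays and does not rank these genes. Among genes with a mean level below 14, farther from the top of the scale, Ncbp3, Gucd1, Thoc7 and Atp5o took the places of the 4 genes above it, a selection added after the data were seen.

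**Figure D3:**
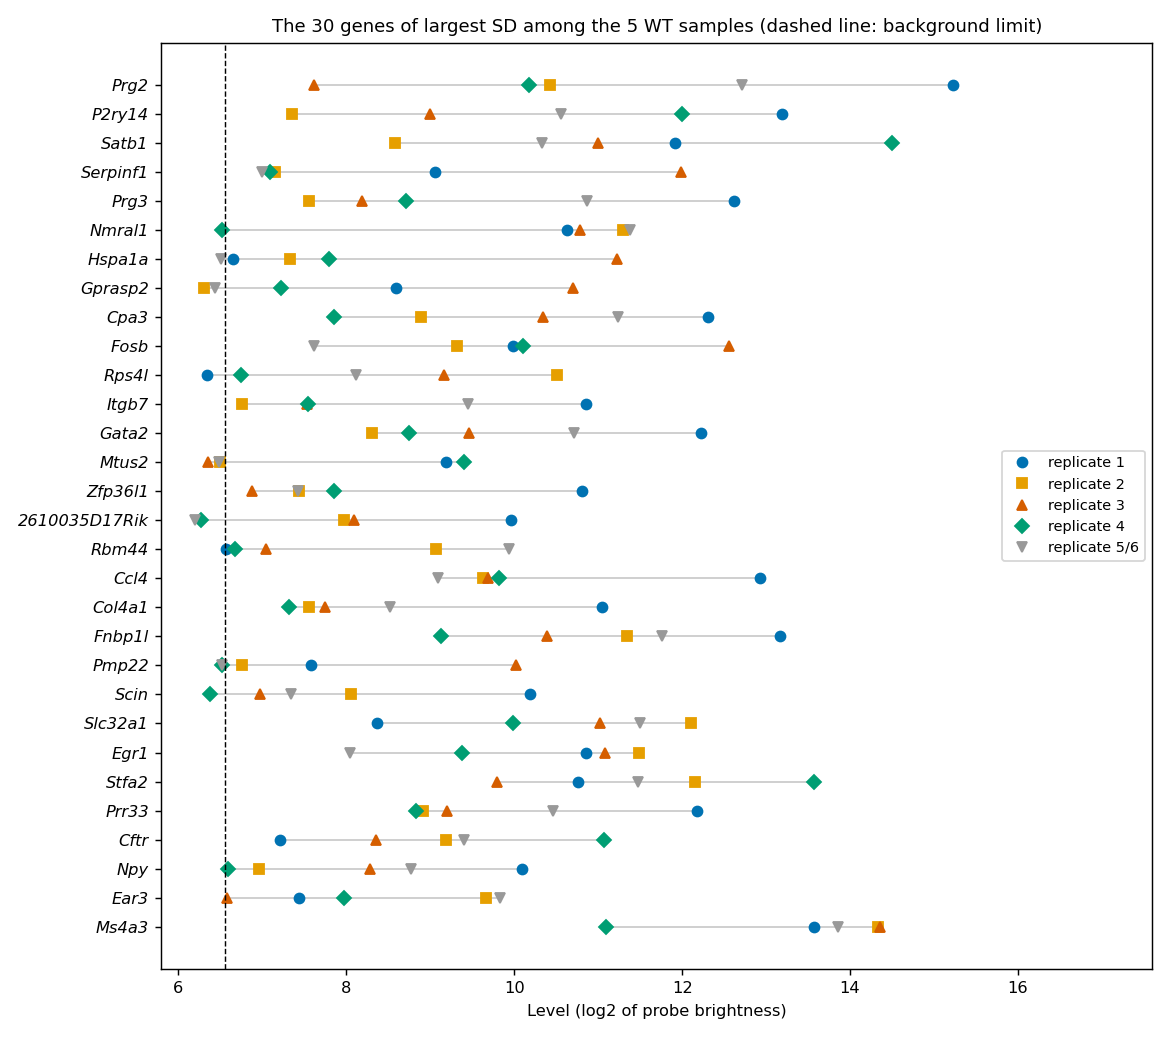
Levels (horizontal axis, log2 of probe brightness) of the 30 genes of largest SD (vertical axis) in each of the 5 WT samples, marked by replicate. Prg2 at the top runs over 7.60 log2 units with replicate 1 highest, and Prg3, Cpa3, Itgb7 and Gata2 share replicate 1 and then 5/6 as their highest samples.

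The most variable gene was Prg2, which encodes the major basic protein of eosinophil granules. It had 15.22, 10.42, 7.62, 10.17 and 12.71, a range of 7.60 log2 units, and the difference between the arrays of replicates 5 and 6 was -0.01. The value in replicate 1 lies above 15, where spread was smaller over all genes, and Prg2 has no other probe. Whether this range is understated was not tested. Prg3, its neighbour and paralogue, had 12.62, 7.56, 8.19, 8.71 and 10.87. Cpa3, the carboxypeptidase of mast cell and basophil granules, had 12.31, 8.90, 10.35, 7.85 and 11.23 and repeated this on its probe 2 with 12.21, 8.71, 10.25, 7.75 and 11.23. All 3 genes were highest in replicate 1 and next highest in 5/6, while their lowest samples were replicates 3, 2 and 4 in turn. Gata2, a factor of stem cells, mast cells and the basophil and eosinophil paths, had 12.22, 8.31, 9.46, 8.75 and 10.72, with the same samples on top.

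This order, replicate 1 highest and 5/6 next, was shared by 47 of the 211 genes (22.3%), against 8.55% of the 12941, an order picked out after the values were seen. Among the 47 were Itgb7 (10.85, 6.76, 7.53, 7.54 and 9.45), an integrin chain of gut-homing leukocytes and mast cells, Fnbp1l (13.16, 11.34, 10.39, 9.13 and 11.76) and Npy (10.09, 6.96, 8.29, 6.59 and 8.77). Col4a1, a basement membrane collagen, had 11.05, 7.55, 7.75, 7.32 and 8.52, and Prr33 had 12.18, 8.91, 9.20, 8.83 and 10.46. Irf5, Bcl2 and Itga2b were others. Most genes that define mature eosinophils, basophils or mast cells were near background in the same samples. Epx, the eosinophil peroxidase, lay between 6.27 and 6.84, Ccr3 between 6.30 and 6.43, Ms4a2 between 6.33 and 6.68, and Mcpt4 and Tpsb2 were below the limit in all samples. Fcer1a, a chain of the high-affinity receptor for immunoglobulin E, lay between 6.71 and 6.92 and Mcpt8, a basophil protease, between 6.97 and 7.50. Hdc, which makes histamine, was bright without this order, at 11.88, 13.19, 11.68, 12.18 and 13.31. In all, 3 of 8 eosinophil genes (37.5%) and 5 of 14 basophil and mast cell genes (35.7%) were above the limit in all samples, against 48.7% of all genes. The part of such cells in the values of Prg2, Prg3 and Cpa3 was not tested.

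Gata2, Prg2, Prg3 and Cpa3 shared their highest and next highest samples, but not all of them shared a lowest sample. The 250 bases before the start sites of Cpa3 and Prg3 are shown from RefSeq (GRCm38.p6), 5′ to 3′ on the strand of the gene. The letters AGATAA, a motif that GATA factors bind, are in capitals. No window was available for Prg2, and whether GATA2 acts on these genes was not tested. The window of Cpa3 is chr3:20242182-20242431 on the minus strand and that of Prg3 is chr2:84987965-84988214 on the plus strand.
Cpa3: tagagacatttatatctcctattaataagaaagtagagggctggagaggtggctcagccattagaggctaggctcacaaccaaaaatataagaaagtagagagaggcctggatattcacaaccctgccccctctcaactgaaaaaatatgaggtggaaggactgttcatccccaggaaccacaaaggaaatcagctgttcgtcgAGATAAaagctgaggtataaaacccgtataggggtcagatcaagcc
Prg3: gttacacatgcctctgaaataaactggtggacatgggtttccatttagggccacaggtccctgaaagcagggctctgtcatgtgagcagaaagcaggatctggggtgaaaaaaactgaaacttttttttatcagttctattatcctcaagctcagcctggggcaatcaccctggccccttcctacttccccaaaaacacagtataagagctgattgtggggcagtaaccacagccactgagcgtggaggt
AGATAA, searched on both strands, occurs once before Cpa3, starting 46 bases before the start site, and these letters are not in the window of Prg3. They occur in 9.99% of 32851 mouse promoter windows of this length. No other form of the motif was searched. The Prg3 window holds ttatca, which reads TGATAA on the other strand and differs from AGATAA only in its first letter. The absence of AGATAA therefore does not show that Prg3 lacks a GATA site.

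P2ry14 and Satb1 came next in SD and followed other orders. P2ry14, a receptor for UDP-glucose found on stem and progenitor cells, had 13.19, 7.35, 8.996, 11.99 and 10.56, a range of 5.84, and its probe 2 gave 12.51, 7.09, 8.60, 11.41 and 10.02. Satb1, a chromatin organiser counted in the MLL fusion list, had 11.92, 8.58, 10.99, 14.50 and 10.34, a range of 5.92. Replicate 4 was 2.58 above the next sample for Satb1, and on probe 2 it read 10.39 against at most 6.76 elsewhere. Replicate 2 was the lowest sample for both genes.

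Serpinf1, a secreted serpin, had 9.06, 7.16, 11.98, 7.09 and 6.995, and Gprasp2, which sorts receptors to lysosomes, had 8.59, 6.31, 10.70, 7.22 and 6.44. Pmp22, a membrane protein of myelin, had 7.59, 6.76, 10.02, 6.52 and 6.52. In all 3 genes replicate 3 was highest and replicate 1 next. Nmral1, a sensor of NADP levels, had 10.63, 11.29, 10.78, 6.52 and 11.38, so replicate 4 was at background while the others lay at or above 10.63. Since the value in replicate 4 is not above the limit, the gap of 4.11 log2 units has no exact fold. Rps4l, a relative of ribosomal protein S4, had 6.35, 10.51, 9.17, 6.75 and 8.12, which put replicate 1 at background. Stfa2, a stefin, had 10.76, 12.15, 9.80, 13.56 and 11.48, and Cftr, a chloride channel, had 7.21, 9.19, 8.35, 11.06 and 9.40.

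The other genes among the 30 of largest SD were Mtus2, Zfp36l1, 2610035D17Rik, Rbm44, Scin, Slc32a1, Ear3 and those named elsewhere in the text. Scin, an actin-severing protein, had 10.19, 8.05, 6.97, 6.38 and 7.34, with replicate 1 highest. Slc32a1, a transporter of inhibitory neurotransmitters, had 8.37, 12.11, 11.02, 9.99 and 11.49, with replicate 1 lowest. Ear3, an eosinophil-associated ribonuclease with close paralogues, had 7.44, 9.66, 6.58, 7.98 and 9.83, and Rbm44 had 6.57, 9.07, 7.04, 6.67 and 9.93. Replicates 2 and 5/6 were highest for both. Mtus2 had 9.19, 6.50, 6.35, 9.40 and 6.48 on its brightest probe, and 2610035D17Rik had 9.96, 7.97, 8.09, 6.27 and 6.19.

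Late neutrophil genes split the samples. Replicates 2 and 4 both lay above replicates 1 and 3 in 20 of the 27 members above the limit in at least 1 sample (74.1%), against 15.5% of all such genes, a split picked out after the values were seen. Ltf had 8.50, 11.21, 9.03, 10.71 and 10.44. Olfm4, a secondary granule glycoprotein, had 11.24, 12.65, 11.62, 13.59 and 12.37, and Lcn2 had 12.74, 13.39, 11.74, 14.04 and 13.30. Ngp had 13.04, 14.60, 13.64, 14.94 and 14.52, again with replicates 1 and 3 lowest. Anxa1 and Mmp9 were exceptions, with replicate 1 highest, at 9.82 and 9.16. Slpi, an inhibitor of elastase, was another, with 15.71, 14.93, 13.78, 14.01 and 15.60. Of 28 measured genes, 10 had a range of at least 2, against 1.63% of all genes above the limit in at least 1 sample. The split was not shared by the primary granule list, where 4 of 17 members (23.5%) showed it.

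**Figure D4:**
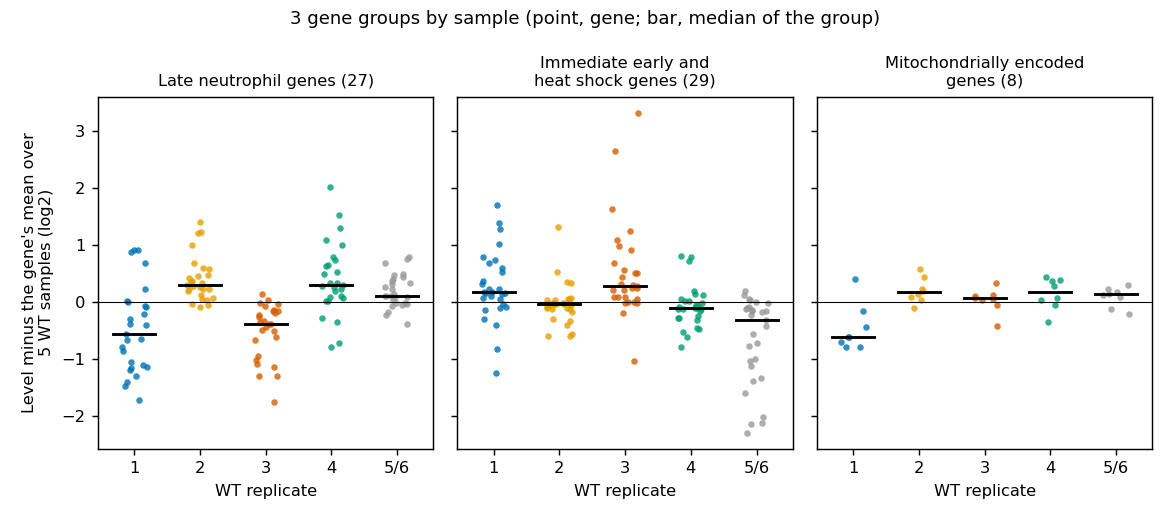
Level of each gene minus its mean over the 5 WT samples (vertical axis, log2) by replicate (horizontal axis) for late neutrophil genes, immediate early and heat shock genes above the limit in at least 1 sample, and mitochondrially encoded genes. The bars give group medians, which for late neutrophil genes are 0.29 and 0.30 in replicates 2 and 4 and -0.56 and -0.39 in replicates 1 and 3.

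Immediate early genes, which cells switch on within minutes of a stimulus, were lowest in 5/6. That sample was the lowest for 19 of 29 members of the immediate early and heat shock list (65.5%). The share was 13.2% over all genes above the limit in at least 1 sample. A range of at least 2 was seen in 9 of the 31 measured, against 1.63% of all genes above the limit in at least 1 sample. Fosb, a subunit of the AP-1 factor, had 9.99, 9.31, 12.56, 10.10 and 7.62, a range of 4.94. Fos had 13.54, 12.49, 13.62, 12.07 and 10.92, Jun had 8.68, 8.14, 9.56, 8.23 and 6.97 and Dusp1, a phosphatase that turns off MAP kinases, had 13.43, 12.04, 13.14, 12.18 and 10.02. Replicate 3 was highest for the 3 AP-1 genes and 5/6 lowest for all 4. Egr1 had 10.85, 11.49, 11.08, 9.38 and 8.05, and Klf2 had 13.21, 11.41, 12.07, 12.62 and 9.80. The difference between the arrays of replicates 5 and 6 was -0.01 for Fosb and -0.03 for Egr1. Nr4a1, another gene of this class, was below the limit in all samples.

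The windows of Fos, Dusp1 and Fosb are shown since these genes shared a lowest sample. They are the 250 bases before the start site in RefSeq (GRCm38.p6), 5′ to 3′, on the plus strand for Fos (chr12:85473640-85473889) and on the minus strand for Dusp1 (chr17:26508473-26508722) and Fosb (chr7:19310046-19310295). Capitals mark TGACGT, the core of the site bound by CREB, on either strand.
Fos: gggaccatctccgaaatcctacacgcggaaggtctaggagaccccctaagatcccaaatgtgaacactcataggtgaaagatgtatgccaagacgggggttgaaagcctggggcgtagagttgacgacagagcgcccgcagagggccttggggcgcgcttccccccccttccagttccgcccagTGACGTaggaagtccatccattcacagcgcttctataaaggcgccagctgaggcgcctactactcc
Dusp1: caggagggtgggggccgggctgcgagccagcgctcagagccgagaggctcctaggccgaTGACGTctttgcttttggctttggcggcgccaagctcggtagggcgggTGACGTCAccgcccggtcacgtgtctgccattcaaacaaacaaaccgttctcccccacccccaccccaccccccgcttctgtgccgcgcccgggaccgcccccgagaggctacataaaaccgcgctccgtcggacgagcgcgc
Fosb: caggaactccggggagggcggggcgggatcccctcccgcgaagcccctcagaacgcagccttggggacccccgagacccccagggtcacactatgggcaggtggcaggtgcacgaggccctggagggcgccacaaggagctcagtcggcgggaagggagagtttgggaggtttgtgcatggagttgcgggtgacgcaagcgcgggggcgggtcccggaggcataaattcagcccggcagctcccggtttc
The letters start 66 bases before the start site of Fos. Before Dusp1 they start at 191 and at 143 bases, and the match at 143 overlaps one on the opposite strand at 141. They are not in the window of Fosb, and they occur in 6.47% of the 32851 windows. No other form of the site was searched, and the Fosb window holds tgacgc, which differs from TGACGT only in its last letter. The absence of TGACGT therefore does not show that Fosb lacks a CREB site.

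The inducible heat shock gene Hspa1a set replicate 3 apart. It had 6.65, 7.33, 11.22, 7.79 and 6.51, a gap of 3.43 log2 units (10.8-fold) above the next sample, and its probes 2 and 3 were highest in replicate 3 too, at 8.41 and 7.63. Hspa1b, its near-identical copy, had 6.77, 7.0, 9.22, 8.38 and 6.58, and their probes may read both transcripts. Other chaperone genes moved less. Hspa8, which is expressed without stress, had 14.86, 14.74, 15.07, 14.60 and 14.53, Dnajb1 lay between 12.29 and 12.55 and Hsp90aa1 between 10.99 and 11.58. The window before Hspa1a (chr17:34972157-34972406, minus strand, RefSeq, GRCm38.p6) is shown for comparison with the genes above, with the letters of GAANNTTC, the core of the site of heat shock factor, in capitals, N being any base.
Hspa1a: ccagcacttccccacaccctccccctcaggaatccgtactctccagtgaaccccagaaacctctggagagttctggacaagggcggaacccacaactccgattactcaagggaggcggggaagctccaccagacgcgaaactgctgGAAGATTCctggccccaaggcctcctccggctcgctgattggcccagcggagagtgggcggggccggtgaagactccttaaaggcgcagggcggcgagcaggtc
This match starts 104 bases before the start site. The window of Hspa1b is 98.8% identical (247 of 250 bases) and holds the match at the same place, and GAANNTTC occurs in 6.69% of the 32851 windows.

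A gene was said to be set apart in a sample when that sample lay at least 1 log2 unit above or below all others. This was so for 220 of the 12941 genes (1.70%). Replicate 1 accounted for 68 genes above (0.525%) and 35 below (0.270%), replicate 3 for 42 above (0.325%) and 7 below (0.0541%), and replicate 4 for 36 above (0.278%) and 13 below (0.100%). Replicate 2 had 10 above (0.0773%) and 5 below (0.0386%), and the averaged sample 5/6 had 6 above (0.0464%) and 8 below (0.0618%). Sample 5/6 is the mean of 2 arrays and the other samples are single arrays.

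Replicate 1 was highest by the widest gaps for Ccl4, Zfp36l1 and Col4a1. Ccl4, a chemokine of activated myeloid cells, had 12.93, 9.63, 9.69, 9.82 and 9.10, and its probe 2 gave 10.21 in replicate 1 against at most 7.81 elsewhere. Ccl3 had 12.98, 10.47, 11.08, 10.45 and 10.21 and Osm, an inflammatory cytokine, 12.34, 10.29, 9.88, 10.54 and 9.68. Zfp36l1, which promotes the decay of AU-rich messages, had 10.81, 7.44, 6.88, 7.85 and 7.42. Replicate 1 was the highest for 8 of 15 inflammatory genes above the limit in at least 1 sample (53.3%), against 27.1% of all such genes. It was lowest by the widest gaps for Ces1d (10.11, 12.46, 12.40, 12.98 and 12.22), a carboxylesterase, Mgst2 (10.40, 13.09, 12.25, 12.27 and 12.37), a glutathione transferase, and Slc32a1.

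The genes of the other samples were of several kinds. Besides Cdkn1a, replicate 2 was highest for D630023F18Rik and for Orm1 (6.67, 9.61, 8.03, 7.99 and 7.91), an acute phase protein also stored in granules, and it was lowest for Satb1, P2ry14 and Pkp4 (9.60, 7.15, 9.20, 8.95 and 8.56). Replicate 3 was lowest for Prg2, Lipo3 (8.72, 9.01, 6.61, 8.93 and 9.58) and Lgals3, a galectin of macrophages (12.84, 11.42, 9.44, 11.62 and 12.01). Replicate 4 was highest for Satb1, for the adhesion gene Sdk1 (6.47, 7.30, 7.27, 10.01 and 7.77) and for the sialyltransferase gene St6galnac3 (6.36, 6.29, 6.33, 8.48 and 6.46), and lowest for Nmral1, Ms4a3 and Nt5c3b (8.79, 8.59, 8.91, 6.56 and 8.44). Nt5c3b, a nucleotidase, gave 6.57 on probe 2 in replicate 4 as well, against at least 8.16 elsewhere.

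Sample 5/6 was set apart upward for Xlr4c (7.09, 6.81, 7.0, 7.11 and 8.70) and for the haemoglobin genes Hbb-bs and Hba-a1. Hbb-bs, a beta globin, had 7.01, 6.86, 6.54, 6.68 and 8.56, and Hba-a1, an alpha globin, had 7.10, 6.57, 6.40, 6.46 and 8.18. Both were highest in 5/6 by at least 1. Hbb-bt had 6.90, 7.14, 6.56, 6.51 and 8.08, also highest in 5/6 but by less than 1, and Hbb-b2 lay between 6.24 and 6.46 in the 5 samples. The other erythroid genes did not share this. Alas2 and Slc4a1, of haem synthesis and the red cell membrane, were below the limit in all samples with highest values of 6.52 and 6.53. The part of red cell RNA in this sample was not tested. Besides Dusp1 and Fosb, sample 5/6 was lowest by the widest gaps for Vill, a villin-like gene (8.00, 8.02, 8.95, 7.83 and 6.20).

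Genes of chromosome 19 were shifted together in most samples. Over its 332 genes above the limit in all samples, the median difference from the mean of the other 4 samples was 0.21 in replicate 1, -0.19 in replicate 2, 0.00 in replicate 3, 0.10 in replicate 4 and -0.12 in 5/6. The medians of the 19 other chromosomes, X included, lay between -0.02 and 0.05 in replicate 1, between -0.02 and 0.06 in replicate 2, between -0.06 and 0.06 in replicate 3, between -0.10 and -0.04 in replicate 4 and between -0.02 and 0.11 in 5/6. Chromosome 17 gave the 0.11 in 5/6, where 70.6% of its 497 genes were higher than the mean of the other samples, and it gave the lowest of the other medians, -0.06, in replicate 3. Chromosome 19 lay outside the range of the others in every sample except replicate 3. In replicate 1, 78.0% of its genes were higher than the mean of the other samples, and in replicate 2, 21.99% were.

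**Figure D5:**
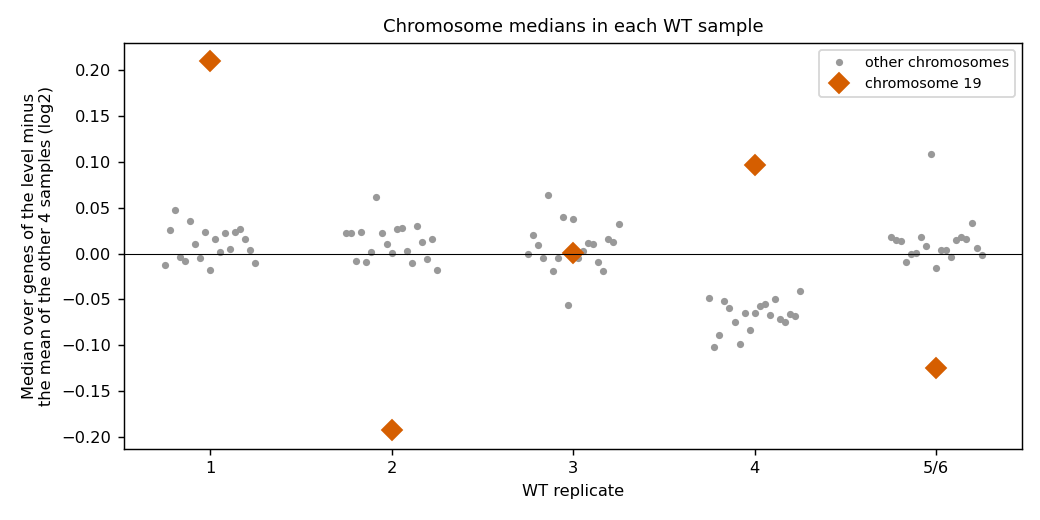
Median over genes of the level minus the mean of the other 4 WT samples (vertical axis, log2) for each chromosome (points) by replicate (horizontal axis), over genes above the limit in all samples. Chromosome 19 sits at 0.21 in replicate 1 and -0.19 in replicate 2, outside the points of the other chromosomes.

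The shift ran along the whole of chromosome 19. When its genes were cut in gene order into 3 stretches of 111, 111 and 110 genes, the medians were 0.27, 0.16 and 0.20 in replicate 1 and -0.19, -0.19 and -0.20 in replicate 2. In 5/6 they were -0.12, -0.08 and -0.17. These shifts are small beside the ranges of single genes above, though 14 of the 211 genes with a range of at least 2 (6.64%) lie on chromosome 19, against 476 of the 12941 (3.68%). Ms4a3, Lipo3 and Csf2ra, named above, lie on chromosome 19.

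Genes encoded by the mitochondrial genome were lower in replicate 1. Over 8 such genes the median difference from the mean of the other samples was -0.77 in replicate 1, against 0.08 to 0.21 in the other samples. Replicate 1 was the lowest for 7 of the 8 (87.5%), against 21.1% of all genes above the limit in at least 1 sample. ND1, a subunit of complex I, had 13.41, 14.35, 14.07, 14.48 and 14.26 and COX2, a subunit of cytochrome oxidase, had 12.45, 13.32, 13.28, 13.67 and 13.46. ND5 was the exception, with 7.84, 8.02, 7.02, 7.09 and 7.22. The difference between the arrays of replicates 5 and 6 was -0.50 for ND1 and -0.41 for COX2, but -0.01 for CYTB and for ND4. ND4 had 14.68, 15.43, 15.38, 15.57 and 15.38, lowest in replicate 1 by 0.70.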

How the data were processed

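The series holds 12 Illumina bead arrays, and the 6 labelled WT were used here. The authors deposited a table of log2 values for 38502 probes. Its log base is not stated and was read from the range of the values, 5.81 to 15.95, and array medians lay between 6.57 and 6.58. The submitters' processing notes name GenomeStudio, with its version and normalization not given in the sources used here. No background subtraction is visible, so differences between dim genes are understated. A further deposited table has 24 columns (12 of signal, 12 of detection) whose names match no sample, and these were not used.

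Of the probes, 32034 were annotated with 1 gene, 16 with several and 6452 with none, and 31976 matched RefSeq (GRCm38.p6) by gene. A gene took the level of its brightest probe by mean. The background limit was the mode of all values, 6.34, plus the one-sided 5% tail of a normal curve of SD 0.13 fitted below the mode. Replicates 5 and 6 were averaged. There is 1 group, so no test was run, and the number of arrays limits the precision. No scan date or slide was available to check for batches.

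Named are the 25 brightest genes, the 30 of largest SD, the 3 of largest gap per sample and direction, the 10 steadiest of the 4621 brightest, Kit, Hoxa9, Meis1 and Mpo, and up to 12 members of each of 27 lists by rank of level or SD. Genes named outside that rule were chosen after their values were seen: Bub1, Ccnb2, C1qa, C1qb, C1qc, Siglec1, Cd3e, Cd3g, Pax5, Flt3, Myb, Mn1, Zfp521, Ifit1, Rtp4, Mmp8, Mmp9, Retnlg, Nr4a1, Hbb-b2, CYTB, ND1, ND4, ND5 and COX2. The members and lists were chosen with earlier results of these data known. Patterns of samples over lists were picked after the values were seen. Scripts were tested on simulated data and used python 3.11.15, numpy 2.4.6, scipy 1.17.1, pandas 2.3.3 and matplotlib 3.10.9. Alternatives covered the limit, the probe of a gene, the averaging of replicates 5 and 6, the thresholds and leaving out each sample.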

Additional observations from a re-analysis of the deposited data

Results flagged for a closer look

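Each gene named in the text was checked for 1 sample far from the other 4, by the gap to the nearest sample over the whole range. A ratio above 0.71 marks such a gene, and chance alone gives that in about 1 of 20 groups. Of 229 named genes 21 passed, and of all 12941 genes above the limit in at least 1 sample 827 (6.39%) did. Several of the 21 were named for a gap and so passed by choice.

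Replicate 1 stood high for Ccl4 (0.8105), Itga2b (0.7809) and Zfp36l1 (0.7529), the ratio being given in parentheses. It stood low for Camp (0.7112), Ces1d (0.7348), Chil3 (0.8212), Gpx1 (0.7762), Mpo (0.7264) and ND4 (0.7885), of which Gpx1 and Mpo lie at the top of the scale and span only 0.11 and 0.21 log2 units. Replicate 2 stood high for Nfkbia (0.8586), the inhibitor of NF-kappaB. Replicate 3 stood high for Hsp90aa1 (0.7447) and Hspa1a (0.7271) and low for Ifit1 (0.8249), a gene below the limit in all samples. Replicate 4 stood high for St6galnac3 (0.9235) and Top2a (0.7225) and low for Ms4a3 (0.7614), Nmral1 (0.8464), Nt5c3b (0.7991) and Rps9 (0.7515). Sample 5/6 stood high for Hbb-bs (0.7644) and Xlr4c (0.8387).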

How the results depend on the processing

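With a stricter limit of 7.35, the 95th percentile of genes of other tissues, 10517 genes were above it in no sample, against 5543, and 11 of 27 list counts moved by over 1.5 times. With a limit of 6.65, which leaves 1% of background above it, 3 of 27 did. A range of at least 1 gave 1177 genes, against 211 at 2, and a gap of at least 2 gave 26 genes set apart, against 220 at 1. Without replicate 1, 2, 3 or 4 in turn, between 107 and 181 genes had a range of at least 2, and 192 did without 5/6. Between 18 and 24 of the 30 genes named for their SD stayed among the 30, and 26 did without 5/6. The lowest of both came without replicate 1. With the mean of all its probes, Kit had 9.02, Hoxa9 9.19, Meis1 10.03 and Mpo 14.68, and 66 of 225 other named levels moved by more than their SD. The 225 include genes with only 1 probe, such as Prg2, whose level could not move. The share among genes with several probes is therefore higher. Single probes, an alternative chosen after seeing the data, gave 8.14 and 6.39 for Kit, 6.68 for probe 3 of Hoxa9, 10.01 and 7.50 for Meis1, and 15.49, 14.06 and 13.52 for Mpo. The cause of the differences between probes was not tested. Absolute levels therefore depend on the probe. With 6 arrays as separate samples, 0 of 27 list counts and 0 of 225 levels moved. This changes only the weight of replicates 5 and 6 in a mean, which cannot move a level on the same probe by its SD. The 0 of 225 is therefore no check of the averaging. No paired analysis was possible because only 1 group was used.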

Other observations

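Probes with no gene in the annotation made up 6452 of 38502 (16.8%). Of these, 1957 (30.3%) were above the limit in all 5 samples. Among the 3560 above it in at least 1 sample, 72 (2.02%) had a range of at least 2 log2 units. Of the 211 genes with such a range, 165 (78.2%) were in none of the 27 lists.

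Stem cell genes above the limit in at least 1 sample were highest in replicate 1 in 8 of 13 cases (61.5%), against 27.1% of all such genes. Only 3 of the 13, Gata2, Cd34 and Prdm16, had a range of at least 1. The others were dim, with means of at most 7.35 and ranges of at most 0.57, so their order carries little weight. Surface antigens were highest in replicate 1 in 14 of 33 cases (42.4%), and 8 of the 33 had a range of at least 1. Cell division genes were lowest in replicate 1 in 12 of 27 cases (44.4%), against 21.1% of all such genes, and 1 of the 27 had a range of at least 1. These counts were picked after the values were seen.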
